A study of Papio anubis with 25 samples.

Results

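The genes described here are 8 membrane transporters and channels that move chloride and bicarbonate across secretory epithelia: SLC12A2, ANO1, KCNN4, KCNMA1, CFTR, SLC4A4, SLC4A2 and SLC26A6. They were chosen by gene symbol for their part in forming saliva and pancreatic juice, and all 8 listed symbols were found among the 21287 genes of the expression table. The choice was made with earlier results of these data known, so the shares of these genes called are a description. Their RNA was measured by bulk sequencing of 25 flash-frozen tissue samples taken from 5 olive baboons (Papio anubis). Each animal gave 1 library each of parotid gland, submandibular gland, sublingual gland, pancreas and liver, so every group holds 5 animals and every tissue can be compared with every other in the same animals. Only baboon 5 was male and the other 4 were female, so the effect of sex cannot be told apart from that of the animal. No treatment or genetic change is named in the labels, and ages are not given in the sources used here. Levels are in TPM, the share of transcripts per 1e+06 in a library. It is a share of the whole library corrected for transcript length, so the levels of different genes can be set side by side.

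Fluid secretion in these organs is driven by anions. In a salivary acinar cell the cotransporter NKCC1, the product of SLC12A2, loads chloride through the basolateral membrane, and the calcium-activated channel ANO1 (TMEM16A) releases it into the lumen. The calcium-activated potassium channels encoded by KCNN4 (KCa3.1, intermediate conductance) and KCNMA1 (KCa1.1 or BK, large conductance) keep the cell negative inside, which sustains the exit of chloride, and sodium and water follow. In the pancreas the ducts make a bicarbonate-rich fluid: SLC4A4 (NBCe1) takes up sodium and bicarbonate at the basolateral side, CFTR is the cyclic AMP-regulated apical anion channel, SLC26A6 exchanges luminal chloride for bicarbonate, and SLC4A2 (AE2) is a basolateral chloride-bicarbonate exchanger that also helps to set cell pH. In the liver, the bile ducts use a related set of proteins.

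The libraries labelled as salivary gland differed in how much gland RNA they held. The summed level of 8 salivary secretory markers (of 10 listed, AQP5, ZG16B and MUC7 among them) was 960 to 4468 TPM in liver and 1474 to 3897 TPM in pancreas, against 2063 to 20690 TPM in parotid, 2221 to 70576 TPM in submandibular and 1458 to 328078 TPM in sublingual libraries. The parotid and submandibular libraries of baboon 2 and the sublingual library of baboon 2 lay within the range of liver and pancreas, with sums of 2063, 2221 and 1458 TPM, while parotid 5 lay just above it with 4635 TPM. None of the 8 markers was under 1 TPM in any gland library. Markers of other tissues were high in some gland libraries: adipocyte genes summed to 21855 TPM in parotid 2, 2828 TPM in submandibular 2 and 6953 TPM in submandibular 5, lymphocyte genes to 1044 TPM in parotid 5, and skeletal muscle genes to 63572 TPM in sublingual 2. Genes of stratified oral mucosa summed to 112585 and 49959 TPM in sublingual 1 and 4. The pancreas and liver libraries matched their labels, with pancreatic acinar markers at 159275 to 200175 TPM in pancreas and at most 3789 TPM elsewhere, and hepatocyte markers at 42505 to 72804 TPM in liver and at most 1092 TPM elsewhere. In bulk RNA, fewer cells of a type and less RNA per cell cannot be told apart. Because of these markers, values are also given below without 5 gland libraries, namely parotid 2 and 5, submandibular 2 and 5, and sublingual 2, a set completed after the data were seen.

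**Figure D1:**
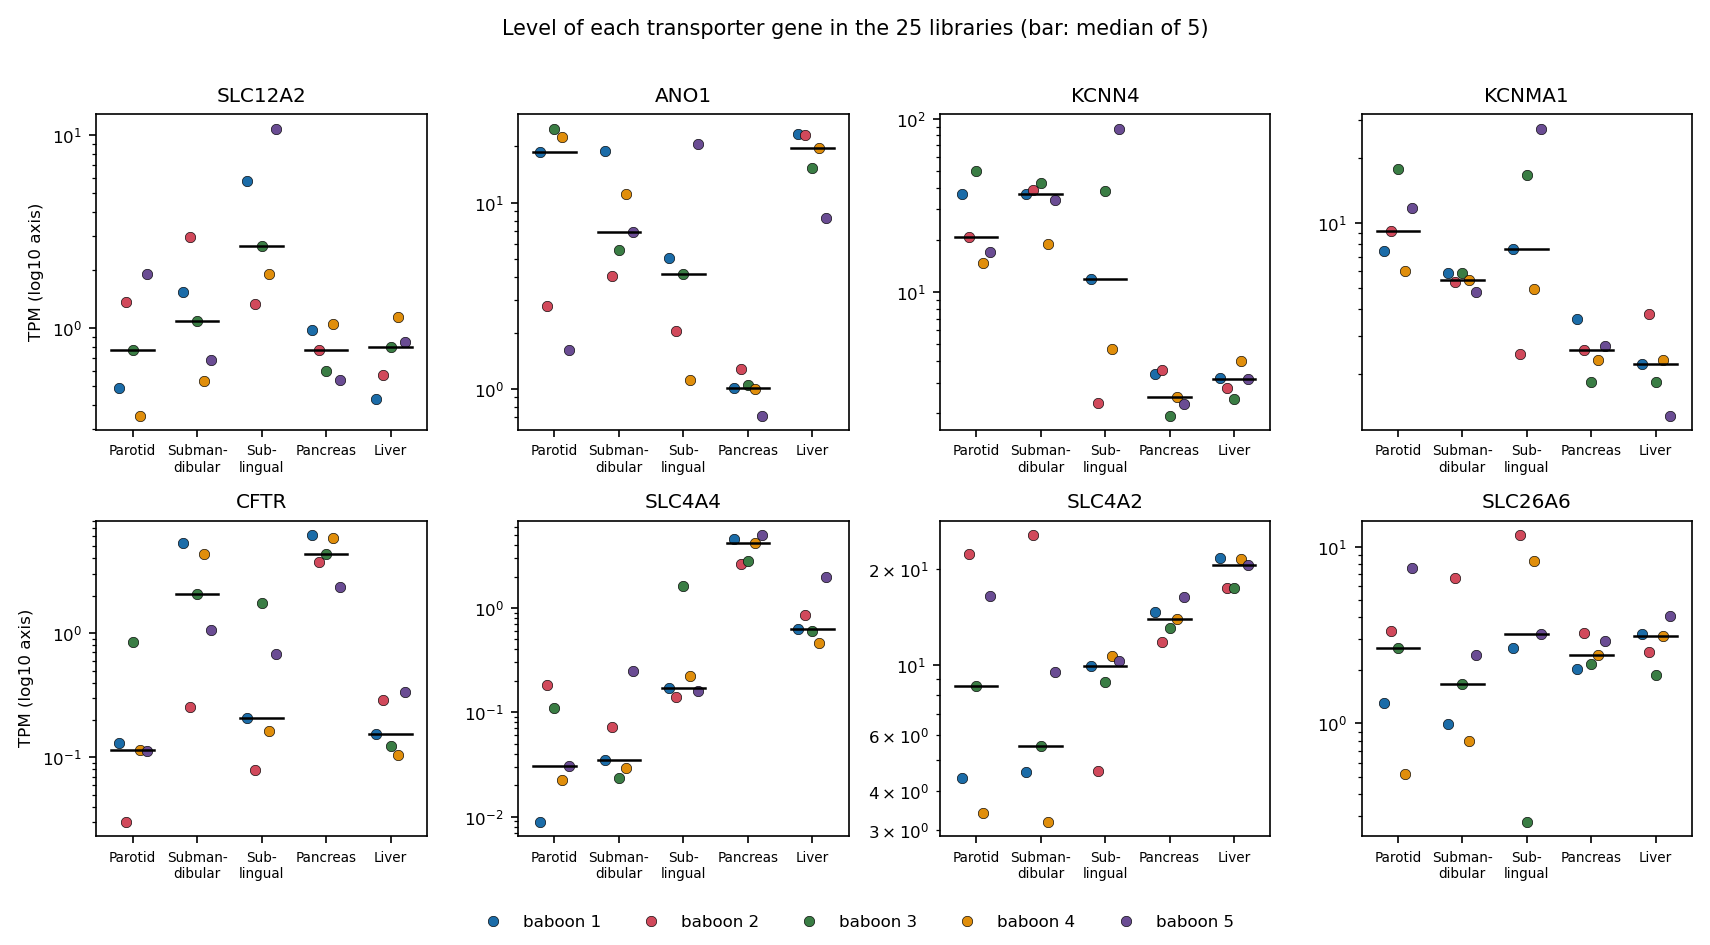
Level of each of the 8 genes in TPM (log axis) in the 5 tissues; each point is 1 library, coloured by baboon, and the bar is the median of 5. KCNN4 sits between 14.8 and 49.8 TPM in every parotid and submandibular library and at no more than 4.02 TPM in pancreas and liver, SLC4A4 is highest in the 5 pancreas libraries, and ANO1 is lowest there.

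Each pair of tissues was compared with limma on log2(TPM + 1) across 14991 genes, with the animal as a block. A gene was called changed at an adjusted p under 0.05 and a log2 fold change of at least 1. All 8 genes entered the test, although CFTR and SLC4A4 were under 1 TPM in 15 and 18 of the 25 libraries. On this scale a change in a low gene is understated.

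Against pancreas, 5 of the 8 genes were called in parotid, where 3.82% of all genes tested were called. Of these, 3 were higher (1.41% of all genes) and 2 lower (2.4%). In submandibular gland 3 of 8 were called, against 4.08% of all genes, with 2 higher (1.27%) and 1 lower (2.81%). In sublingual gland 5 of 8 were called, against 9.47% of all genes, with 3 higher (6.97%) and 2 lower (2.49%). SLC4A4 was among the lower genes in all 3 glands and KCNN4 among the higher ones. With TMM scaling the split was 1 higher and 3 lower in parotid, 1 higher and 2 lower in submandibular gland, and 0 higher and 3 lower in sublingual gland. In that fit 8.69%, 9.2% and 11.5% of all genes were called in parotid, submandibular and sublingual gland.

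Between pancreas and liver 3 of 8 were called, against 17.5% of all genes, with 2 higher in pancreas (2.86%) and 1 lower (14.6%). Against liver, 2 of 8 were called in parotid (13.8% of all genes), both higher (2.84%) and none lower (10.9%). In submandibular gland 2 of 8 were called (16.5%), both higher (2.61%) and none lower (13.9%), and in sublingual gland 3 of 8 (15.4%), all higher (5.93%) and none lower (9.52%). The 3 comparisons with pancreas share the pancreas libraries, and those with liver share the liver libraries, so they are not independent of each other.

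Directions differed from gene to gene. The median log2 fold change of the 8 genes was 0.03 in parotid, 0.05 in submandibular and 0.89 in sublingual gland against pancreas, beside 0.45, 0.17 and 0.63 over all genes tested. It was -0.06 between pancreas and liver, beside -0.44 over all genes. Against liver it was -0.08 in parotid, -0.01 in submandibular and 0.29 in sublingual gland, beside 0.01, -0.27 and 0.17 over all genes. Since the median gene itself was shifted, each change called among the 8 genes with all 25 libraries is followed below by its size relative to that median.

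**Figure D2:**
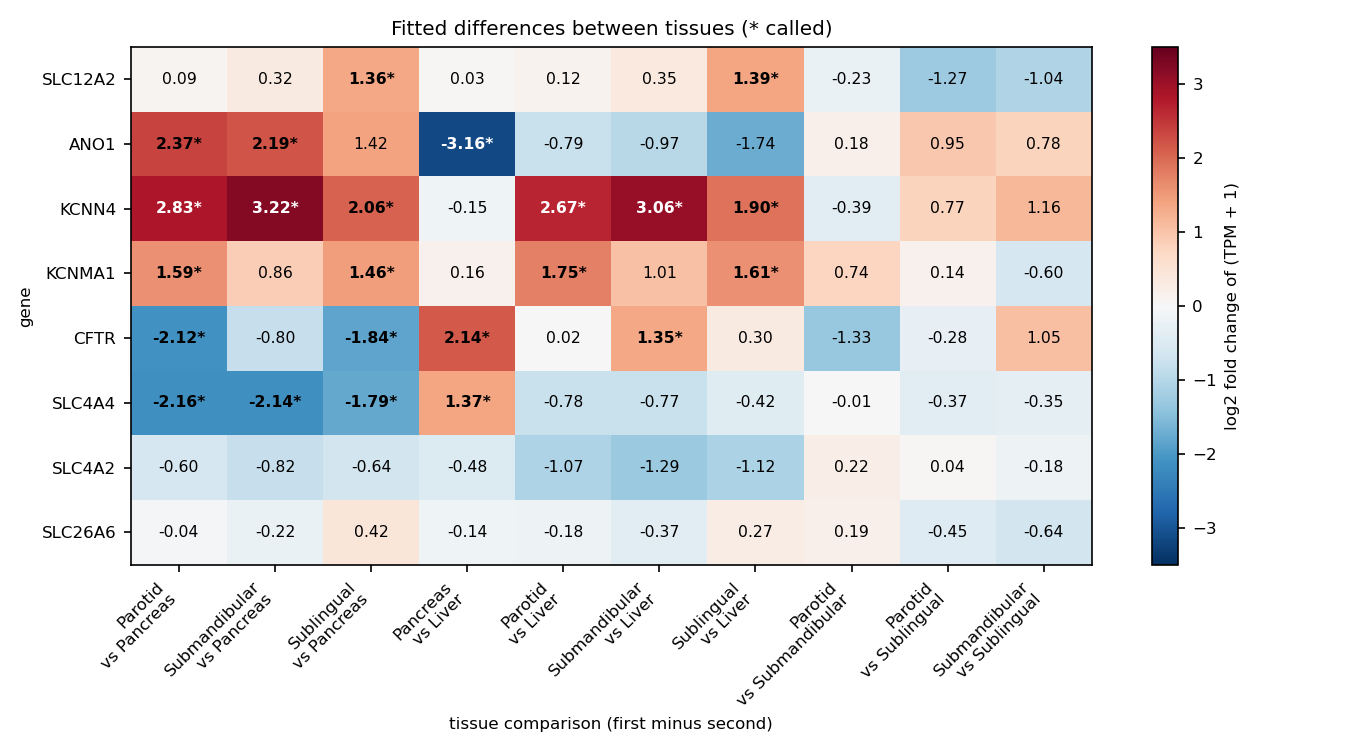
Log2 fold change on the log2(TPM + 1) scale of the 8 genes (rows) in the 10 tissue comparisons (columns, first tissue minus second); an asterisk marks a call. KCNN4 is called higher in all 3 glands than in pancreas and in liver, SLC4A4 is called lower in all 3 glands than in pancreas, and no cell is called among the gland pairs.

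SLC12A2, the chloride loader, had its highest levels in the sublingual gland. It was at 0.488, 1.36, 0.764, 0.351 and 1.91 TPM in the parotid of baboons 1 to 5 and at 1.53, 2.95, 1.09, 0.531 and 0.682 TPM in the submandibular gland. The sublingual gland held 5.78, 1.33, 2.65, 1.91 and 10.8 TPM. Every sublingual library was above every pancreas library (0.538 to 1.05 TPM) and every liver library (0.425 to 1.13 TPM), whereas parotid and submandibular libraries overlapped both. The sublingual mean was 4.49 ± 3.92 TPM (SD, n = 5) against 0.786 ± 0.224 TPM in pancreas, and the log2 fold change was 1.36 (SE 0.37, limma adjusted p = 0.0254), or 0.74 above the median gene. Against liver it was 1.39 (adjusted p = 0.0105), or 1.22 above the median gene. Without sublingual 5, which holds the highest value, the change against pancreas was 1.03 (adjusted p = 0.0627), and with TMM scaling it was 0.86 and under the fold minimum. That call was also lost without baboon 1 (adjusted p = 0.145) or baboon 3 (0.108), and the call against liver without baboon 1 (0.108) or baboon 5 (0.0550). In the tissue order, sublingual (median 2.65 TPM) was followed by submandibular (1.09), liver (0.796), pancreas (0.772) and parotid (0.764), and the last 4 overlapped each other.

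The kinase that switches NKCC1 on, SPAK, is encoded by STK39, whose mean was also highest in the sublingual gland, at 14.4 ± 9.48 TPM. STK39 was at 20.0, 6.86, 6.81, 9.87 and 28.3 TPM in sublingual libraries of baboons 1 to 5, against 1.43 to 2.48 TPM in pancreas and 1.68 to 3.33 TPM in liver, with no overlap. It was called higher in sublingual gland than in pancreas (log2 fold change 2.27, limma adjusted p = 0.00277) and than in liver (1.92, adjusted p = 0.00447). Of the WNK kinases that act upstream of SPAK, WNK1 was at 3.38 to 8.91 TPM in sublingual gland and at 0.931 to 1.67 TPM in pancreas (adjusted p = 0.0591), and WNK3 was called lower in pancreas than in liver (log2 fold change -1.13, adjusted p = 2.91e-05). WNK2 was not called in these comparisons and ranged from 0.201 to 13.4 TPM over the glands, and WNK4 was too low to be tested, with a highest mean of 0.884 TPM.

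ANO1, the luminal calcium-activated chloride channel, was lowest in the pancreas. Its 5 pancreas libraries lay between 0.717 and 1.27 TPM, below all 5 libraries of parotid, submandibular gland and liver. In parotid it was at 18.6, 2.78, 24.9, 22.4 and 1.61 TPM and in submandibular gland at 19.0, 4.01, 5.56, 11.1 and 6.97 TPM in baboons 1 to 5. The parotid values fell into a high set (baboons 1, 3 and 4) and a low set (baboons 2 and 5), and the low set was the 2 libraries with few salivary markers. Sublingual libraries held 5.05, 2.05, 4.11, 1.12 and 20.7 TPM, of which that of baboon 4 lay inside the pancreas range.

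Mean ANO1 levels of 14.1 ± 11.1 TPM in parotid and 9.34 ± 6.03 TPM in submandibular gland stood against 1.004 ± 0.196 TPM in pancreas (SD, n = 5), a ratio of means of 14.0 for parotid and 9.30 for submandibular gland. Both changes were called, at a log2 fold change of 2.37 in parotid (SE 0.61, limma adjusted p = 0.0248, 1.92 above the median gene) and 2.19 in submandibular gland (adjusted p = 0.0412, 2.03 above the median gene), and ANO1 was higher than in pancreas in 5 of 5 animals in each. The sublingual change was 1.42 and was not called (adjusted p = 0.124), though it too was higher in 5 of 5 animals. With TMM scaling the parotid and submandibular changes were 2.31 and 2.28 at adjusted p = 0.0686 and 0.0697, so these calls do not hold on that scale. Both calls were also lost without baboon 1, 3 or 4, with adjusted p of 0.105 to 0.252 in parotid and 0.138 to 0.292 in submandibular gland. Without submandibular 2 the submandibular change was 2.31 (adjusted p = 0.0532). Without the 5 gland libraries the parotid mean was 22.0 ± 3.17 TPM (n = 3).

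ANO1 levels in liver lay within the range of the parotid libraries (1.61 to 24.9 TPM). The 5 liver libraries were at 23.4, 23.0, 15.4, 19.5 and 8.25 TPM, all above every pancreas library, and the log2 fold change of pancreas against liver was -3.16 (SE 0.61, limma adjusted p = 0.000438), or 2.72 below the median gene, a call that held under every alternative run. Parotid and submandibular gland were not called against liver (log2 fold changes -0.79 and -0.97). Sublingual gland was not called either (-1.74), but of its libraries only that of baboon 5 (20.7 TPM) reached the liver range. It was called lower than liver in 6 of 18 alternatives. Without sublingual 5 alone the change was -2.46 (limma adjusted p = 0.0020), in a fit that called 15.3% of all genes. The cholangiocyte markers KRT7, KRT19, SOX9, EPCAM and SPP1 summed to 11.3, 26.0, 24.4, 8.14 and 59.8 TPM in the liver of baboons 1 to 5. In pancreas they summed to 43.3 to 89.1 TPM, a range that only liver 5 reached. The cell type that holds the liver signal was not tested.

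KCNN4, the intermediate-conductance potassium channel, had the highest mean of the 8 genes in all 3 salivary glands. In parotid 2 and 4 and in sublingual 2 and 4, another of the 8 genes was higher. In parotid KCNN4 was at 36.9, 20.7, 49.8, 14.8 and 17.0 TPM and in submandibular gland at 36.6, 38.9, 42.6, 18.9 and 34.1 TPM in baboons 1 to 5. Pancreas held 1.94 to 3.54 TPM and liver 2.42 to 4.02 TPM. All 10 parotid and submandibular libraries therefore lay above all 10 of pancreas and liver, the libraries of baboon 2 and 5 with few salivary markers or many adipocyte markers included. Sublingual libraries spread widely, at 11.9, 2.28, 38.0, 4.68 and 87.5 TPM, and that of baboon 2 lay within the pancreas range.

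Mean KCNN4 levels were 34.2 ± 9.14 TPM in the submandibular, 27.8 ± 15.0 TPM in the parotid and 28.9 ± 35.7 TPM in the sublingual gland, against 2.71 ± 0.698 TPM in pancreas and 3.11 ± 0.595 TPM in liver (SD, n = 5). Against pancreas the log2 fold changes were 2.83 (SE 0.58, limma adjusted p = 0.00336) in parotid, 3.22 (adjusted p = 0.00081) in submandibular gland and 2.06 (adjusted p = 0.0288) in sublingual gland, or 2.38, 3.05 and 1.43 above the median gene. Against liver they were 2.67, 3.06 and 1.90 (adjusted p = 0.00171, 0.000369 and 0.0246), or 2.66, 3.33 and 1.73 above the median gene. Pancreas and liver overlapped, with a log2 fold change of -0.15 (adjusted p = 0.914). The sublingual calls did not hold without sublingual 5, at 1.39 against pancreas (adjusted p = 0.0707) and 1.23 against liver (adjusted p = 0.103), and with TMM scaling the first was 1.38 (adjusted p = 0.139). The call against pancreas was also lost without baboon 1, 3 or 4 (adjusted p = 0.113, 0.184 and 0.0518), and that against liver without baboon 1 or 3 (0.0889 and 0.196). The parotid call against pancreas was lost without baboon 3 (2.51, adjusted p = 0.0649). KCNN4 is also expressed by lymphocytes and red cells, whose markers were highest in parotid 5 (lymphocyte) and in parotid 2 and submandibular 2 (3030 and 6014 TPM for erythroid genes). Without these and the other libraries left out, KCNN4 was at 33.8 ± 17.7 TPM in parotid (n = 3) and 32.7 ± 12.4 TPM in submandibular gland (n = 3).

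KCNMA1, the large-conductance potassium channel, differed less between tissues. Parotid libraries were at 7.40, 9.23, 17.8, 6.02 and 11.8 TPM and sublingual libraries at 7.62, 2.47, 16.8, 4.93 and 27.4 TPM in baboons 1 to 5. The submandibular gland was the most uniform, at 5.89, 5.34, 5.89, 5.44 and 4.78 TPM, below every parotid library. Pancreas (1.83 to 3.61 TPM) and liver (1.29 to 3.82 TPM) overlapped each other and lay below all parotid and submandibular libraries.

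KCNMA1 was called higher in parotid than in pancreas (log2 fold change 1.59 with SE 0.43, limma adjusted p = 0.0369, 1.15 above the median gene) and than in liver (1.75, adjusted p = 0.00614, 1.74 above it). It was also called higher in sublingual gland than in pancreas (1.46, adjusted p = 0.0385, 0.83 above the median gene) and than in liver (1.61, adjusted p = 0.0112, 1.44 above it). The submandibular changes were 0.86 against pancreas (adjusted p = 0.449) and 1.01 against liver (adjusted p = 0.123), and neither was called although the groups did not overlap. With TMM scaling KCNMA1 was not called against pancreas in parotid (1.25, adjusted p = 0.0803) or sublingual gland (0.79, adjusted p = 0.232), and it was called in submandibular gland against liver (1.45, adjusted p = 0.0187). Without sublingual 5 the sublingual changes were 1.05 (adjusted p = 0.0964) against pancreas and 1.21 (adjusted p = 0.0516) against liver. The parotid and sublingual calls against pancreas were lost without any 1 of baboons 1, 3, 4 and 5 (adjusted p = 0.0708 to 0.339). Against liver the sublingual call was lost without baboon 1, 3 or 5 (0.0534 to 0.114) and the parotid call without baboon 3 (0.0853). KCNMA1 is abundant in smooth muscle. Joint markers of smooth muscle and myoepithelium, which do not separate the 2, summed to 46.7 to 1650 TPM in parotid sections. They summed to 122 to 1257 TPM in submandibular and 134 to 3217 TPM in sublingual ones, beside 33.2 to 73.3 TPM in the pancreas and 52.1 to 187 TPM in liver. The highest sum was that of sublingual 2, which also holds skeletal muscle markers. The part of smooth muscle or myoepithelium in the KCNMA1 difference was not tested.

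The auxiliary subunits of the BK channel differed from each other across tissues. KCNMB1, the beta1 subunit best known from smooth muscle, was at 5.92, 9.37, 7.30, 1.63 and 23.6 TPM in parotid and at 2.67 to 5.69 TPM in submandibular gland. Its sublingual libraries were at 2.45, 0.716, 1.58, 2.5 and 15.1 TPM, against 0.105 to 1.002 TPM in pancreas and 0.205 to 0.745 TPM in liver. It was called higher than in pancreas in all 3 glands, with log2 fold changes of 2.54, 1.86 and 1.45 in parotid, submandibular and sublingual gland (limma adjusted p = 0.000535, 0.0125 and 0.0412). Sublingual 2 lay inside the range of pancreas, and the sublingual call was lost in 10 of 18 alternatives (lowest log2 fold change 0.96, adjusted p up to 0.182), the submandibular one in 3 of 18 and the parotid one in 0 of 18. LRRC26, the gamma1 subunit that lets the BK channel open at resting voltages in secretory epithelium, was at 38.6, 2.12, 29.7, 38.0 and 4.56 TPM in the parotid libraries, at 84.0, 1.93, 69.7, 40.6 and 45.3 TPM in the submandibular and at 18.0, 1.64, 106, 2.26 and 180 TPM in the sublingual libraries. These values span the 6.77 to 30.4 TPM of pancreas, and LRRC26 was not called between any gland and pancreas. Its lowest gland libraries were among those with few salivary markers. KCNMB4, the beta4 subunit of nerve, reached 23.2 and 40.7 TPM in parotid 2 and submandibular 2 but not more than 4.53 TPM in any other library, and KCNMB2 and KCNMB3 did not exceed 4.49 TPM.

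**Figure D3:**
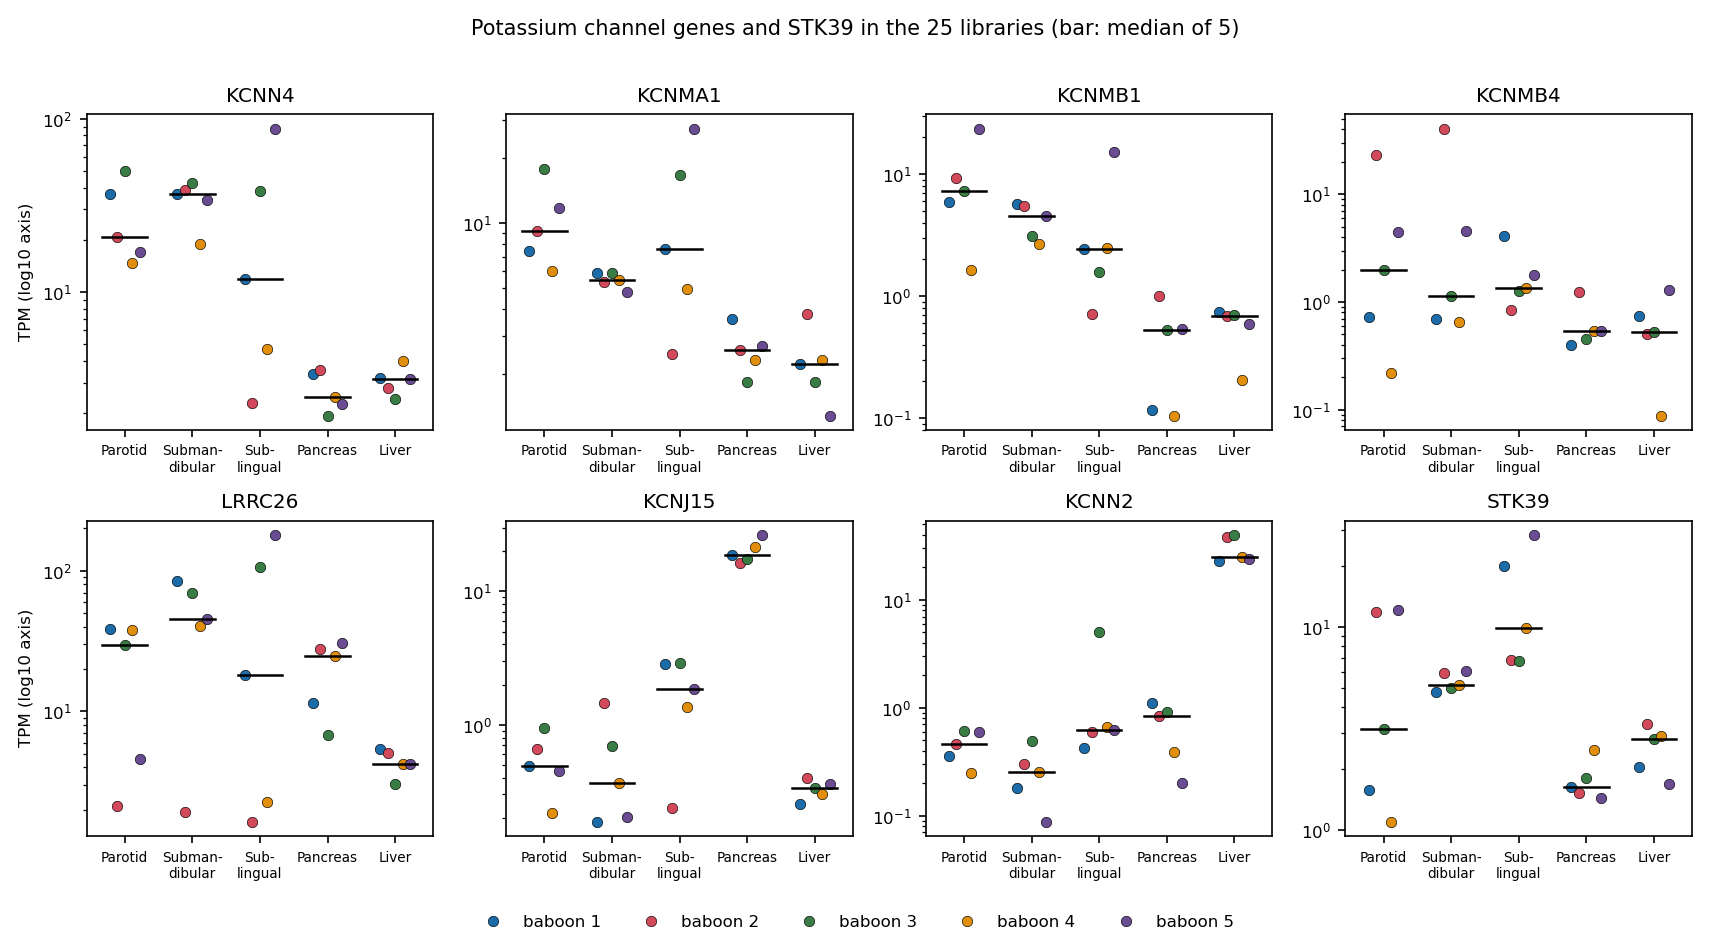
TPM (log axis) of the 2 potassium channels of the set, 3 subunits of the BK channel (KCNMB1, KCNMB4 and LRRC26), 2 other potassium channels (KCNJ15 and KCNN2) and the kinase STK39 in the 5 tissues; each point is 1 library, coloured by baboon, and the bar is the median of 5. KCNJ15 stands out in pancreas at 16.2 to 26.5 TPM and KCNN2 in liver at 22.9 to 40.0 TPM.

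CFTR, the cyclic AMP-regulated anion channel, was highest in pancreas and submandibular gland. Pancreas libraries held 6.17, 3.74, 4.35, 5.79 and 2.37 TPM and submandibular libraries 5.32, 0.256, 2.05, 4.31 and 1.05 TPM in baboons 1 to 5. The submandibular value was below that of the pancreas in 5 of 5 animals, but the ranges overlapped. Parotid libraries held 0.130, 0.0304, 0.841, 0.115 and 0.113 TPM and sublingual libraries 0.208, 0.0791, 1.76, 0.164 and 0.683 TPM, all below the lowest pancreas library. Liver was at 0.104 to 0.337 TPM, the lowest of the 8 genes there.

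From highest to lowest, mean CFTR levels were 4.48 ± 1.55 TPM in pancreas, 2.60 ± 2.15 TPM in the submandibular gland, 0.579 ± 0.701 TPM in the sublingual gland, 0.246 ± 0.335 TPM in parotid and 0.202 ± 0.105 TPM in liver (SD, n = 5). Pancreas exceeded parotid by a ratio of means of 18.2, sublingual gland by 7.74 and liver by 22.2. The log2 fold changes against pancreas were -2.12 in parotid (SE 0.35, limma adjusted p = 0.000297) and -1.84 in sublingual gland (adjusted p = 0.00152), or 2.57 and 2.47 below the median gene. Submandibular gland was not called against pancreas (-0.80, adjusted p = 0.324). Pancreas was called higher than liver (2.14, adjusted p = 5.76e-05, 2.58 above the median gene), and submandibular gland was called higher than liver (1.35, adjusted p = 0.00796, 1.61 above the median gene). CFTR was low in submandibular 2 and 5, the libraries with adipocyte markers, and the submandibular mean without them was 3.89 ± 1.68 TPM (n = 3). The submandibular call against liver was lost without baboon 1 or 4 (adjusted p = 0.0924 and 0.0877). The sublingual call against pancreas was lost in 1 of 17 alternatives, that with 6 gland libraries left out (-1.23, limma adjusted p = 0.0914).

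SLC4A4, the sodium-bicarbonate cotransporter NBCe1, ranged from 0.00892 to 5.02 TPM, the widest ratio of highest to lowest library among the 8 genes (563). Pancreas libraries held 4.60, 2.65, 2.82, 4.23 and 5.02 TPM, above all 20 libraries of the other tissues. Liver came next at 0.631, 0.852, 0.608, 0.463 and 1.98 TPM. Sublingual libraries were at 0.170, 0.139, 1.64, 0.223 and 0.158 TPM, of which only that of baboon 3 exceeded the lowest liver library. Parotid (0.00892 to 0.182 TPM) and submandibular gland (0.0233 to 0.250 TPM) were lower than every liver library. SLC4A4 had the lowest mean of the 8 genes in all 3 glands. In single libraries CFTR was lower than SLC4A4 in parotid 2 and sublingual 2 and 4, and SLC26A6 was lower in sublingual 3.

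The SLC4A4 mean was 3.86 ± 1.07 TPM in pancreas and 0.906 ± 0.614 TPM in liver (SD, n = 5), and pancreas exceeded parotid by a ratio of means of 54.4, submandibular gland by 47.2, sublingual gland by 8.29 and liver by 4.26. The gland means were 0.0710 TPM in parotid, 0.0818 TPM in submandibular and 0.466 TPM in sublingual gland. The ratios to the glands therefore rest on values well under 1 TPM and are imprecise. Log2 fold changes against pancreas were -2.16 in parotid (SE 0.27, limma adjusted p = 5.5e-06), -2.14 in submandibular gland (adjusted p = 5.72e-06) and -1.79 in sublingual gland (adjusted p = 8.25e-05), or 2.60, 2.31 and 2.41 below the median gene. Pancreas against liver gave 1.37 (adjusted p = 0.00047), or 1.81 above the median gene. These 4 calls held under every alternative run in which the gene was tested. The parotid and submandibular differences from liver were -0.78 (adjusted p = 0.0513) and -0.77 (adjusted p = 0.0491, under the fold minimum). With a pseudocount of 0.1, which weights low values more, they were -2.49 and -2.42 (adjusted p = 0.00297 and 0.00339) and would be called. AHCYL1 encodes IRBIT, a protein that activates NBCe1, and it had overlapping levels in all tissues, with means of 8.42 to 17.7 TPM.

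SLC4A2, the chloride-bicarbonate exchanger AE2, had the highest mean of the 8 genes in pancreas and liver. In liver ANO1 was above it in baboons 1 and 2, at 23.4 and 23.0 TPM. SLC4A2 was at 14.7, 11.8, 13.0, 13.9 and 16.4 TPM in pancreas and at 21.8, 17.5, 17.4, 21.6 and 20.6 TPM in liver, with no overlap between them. Sublingual libraries (9.93, 4.63, 8.79, 10.7 and 10.3 TPM) lay below all of pancreas and liver. Parotid libraries held 4.38, 22.4, 8.57, 3.40 and 16.5 TPM and submandibular libraries 4.59, 25.7, 5.54, 3.19 and 9.51 TPM. The highest in each were those of baboons 2 and 5, the libraries with adipocyte or lymphocyte markers, and the other 3 of each gland were below every pancreas library. The 10 highest genes held 18.0% and 24.4% of TPM in parotid 2 and 5, and 16.2% and 57.9% in submandibular 2 and 5. In the other libraries they held 66.2% to 87.7% in parotid and 75.6% to 83.2% in submandibular gland. The part of these shares in the SLC4A2 levels was not tested.

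No SLC4A2 difference was called by limma, though 3 of 10, those of each gland against liver, had an unadjusted p under 0.05. The largest was that of submandibular gland against liver (log2 fold change -1.29 with SE 0.46, limma adjusted p = 0.0550), and sublingual gland against liver gave -1.12 (adjusted p = 0.106). Pancreas against liver gave -0.48 (adjusted p = 0.546), and the median gene stood at -0.44. Without the 5 gland libraries SLC4A2 was at 5.45 ± 2.75 TPM in parotid (n = 3) and 4.44 ± 1.18 TPM in submandibular gland (n = 3). It was then called lower in both than in pancreas (-1.31 and -1.49, adjusted p = 0.00492 and 0.00157) and than in liver (-1.78 and -1.97, adjusted p = 7.47e-05 and 2.57e-05). Among all 14328 genes tested in that fit, 8.29% and 10.5% were called in parotid and submandibular gland against pancreas, and the median gene stood at -0.20 and -0.33. Against liver, 37.2% and 43.8% of all genes were called, and the median gene stood at -0.67 and -0.83. With TMM scaling and all 25 libraries it was also called lower than in pancreas in parotid (-1.09, adjusted p = 0.000435), submandibular gland (-1.02, adjusted p = 0.000821) and sublingual gland (-1.38, adjusted p = 2.55e-05).

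SLC26A6, the apical chloride-bicarbonate exchanger, had means between 2.51 and 5.21 TPM in the 5 tissues. Pancreas was at 2.56 ± 0.510 TPM and liver at 2.96 ± 0.801 TPM, and the means in parotid, submandibular and sublingual gland were 3.08 ± 2.76, 2.51 ± 2.41 and 5.21 ± 4.62 TPM (SD, n = 5). The spread lay in the glands: the sublingual libraries of baboons 1 to 5 were at 2.68, 11.6, 0.278, 8.25 and 3.19 TPM. The 2 highest were sublingual 2, with skeletal muscle markers, and sublingual 4, with oral mucosa markers. In parotid the highest was baboon 5 (7.61 TPM) and in submandibular gland baboon 2 (6.66 TPM). The 10 highest genes held only 24.4% and 16.2% of TPM in these 2 libraries. None of the 10 comparisons was called or had an unadjusted p under 0.05, the largest log2 fold change being -0.64 for submandibular against sublingual gland (SE 0.46, limma adjusted p = 0.502), and none was called under any alternative run.

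Ratios between members within a library do not depend on scaling between libraries. The level of CFTR relative to ANO1 was 6.12, 2.95, 4.19, 5.84 and 3.30 in the pancreas of baboons 1 to 5, and it was below 1 in all 20 libraries of the other tissues. It was 0.280, 0.0638, 0.368, 0.387 and 0.151 in submandibular gland and 0.00512 to 0.0703 in parotid. These 2 glands overlapped in 1 library each, and sublingual gland reached from 0.0330 to 0.428. Pancreas RNA thus held more of the cyclic AMP-regulated than of the calcium-activated channel in 5 of 5 animals, and gland and liver RNA the reverse.

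KCNN4 exceeded KCNMA1 in 5 of 5 parotid libraries (ratio 1.44 to 4.98) and 5 of 5 submandibular libraries (3.46 to 7.28). It did so in 3 of 5 sublingual libraries (0.924 to 3.19), 4 of 5 liver libraries (0.731 to 2.46) and 3 of 5 pancreas libraries (0.837 to 1.37). KCNN4 also exceeded ANO1 in all pancreas, submandibular and sublingual libraries and in 4 of 5 parotid libraries, but in none of the liver libraries, where the ratio was 0.121 to 0.383. SLC4A4 relative to SLC4A2 was 0.216 to 0.313 in pancreas and at most 0.186 in any other library. ANO1 relative to SLC12A2 had a median of 32.6 in parotid, 10.2 in submandibular gland, 19.3 in liver, 1.54 in sublingual gland and 1.33 in pancreas.

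**Figure D4:**
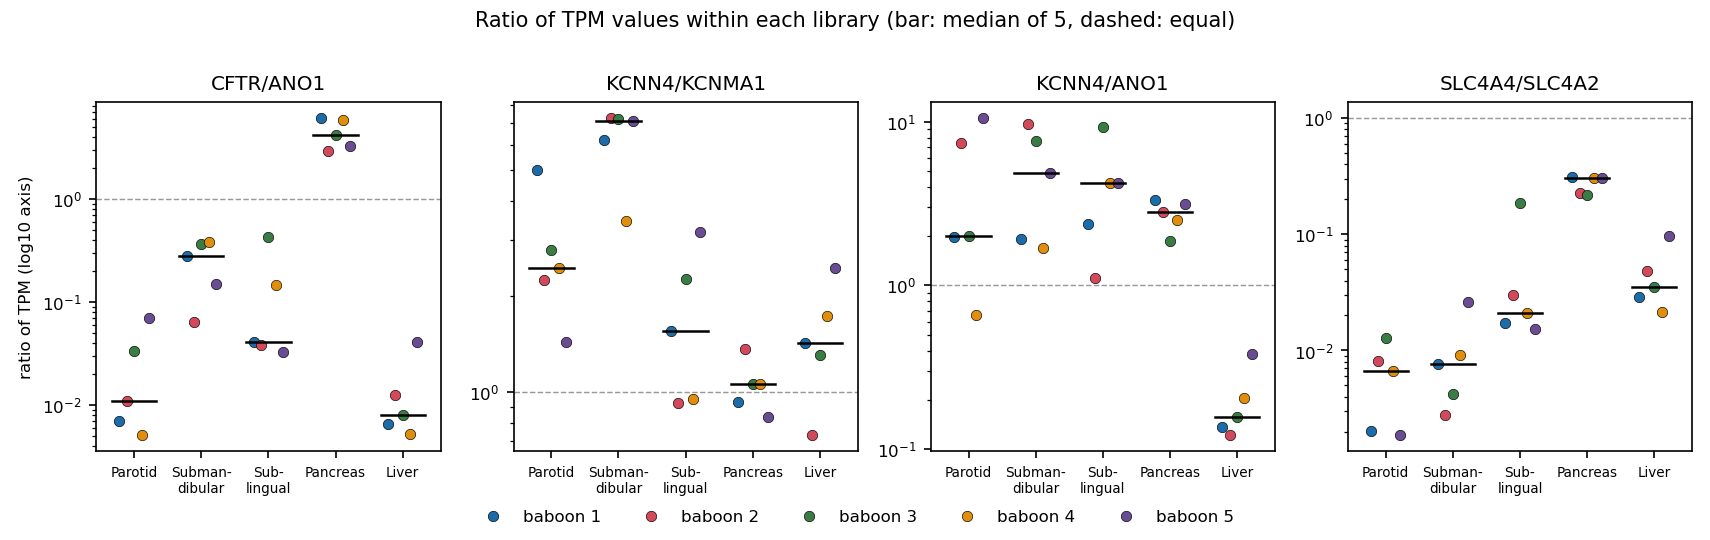
Ratio of TPM between pairs of the 8 genes within each library (log axis) in the 5 tissues; each point is 1 library, coloured by baboon, and the dashed line marks equal levels. CFTR/ANO1 is above 1 in 5 of 5 pancreas libraries and below 1 in the other 20, and KCNN4/ANO1 is below 1 in 5 of 5 liver libraries.

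The order of the 8 genes by mean level therefore changed between organs. In parotid it ran KCNN4, ANO1, SLC4A2, KCNMA1, SLC26A6, SLC12A2, CFTR and SLC4A4, and in submandibular gland CFTR ranked above SLC26A6 and SLC12A2. In pancreas it ran SLC4A2, CFTR, SLC4A4, KCNN4, KCNMA1, SLC26A6, ANO1 and SLC12A2. In liver SLC4A2 (19.8 TPM) and ANO1 (17.9 TPM) led, followed by KCNN4 (3.11 TPM) and SLC26A6 (2.96 TPM), and neighbours within each of these pairs overlapped. Among all genes, KCNN4 stood at percentile 92.9 of the submandibular means and SLC4A4 at percentile 21.1.

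Between the salivary glands none of the 8 genes was called. Over all genes 0% were called between parotid and submandibular gland, 0.113% between parotid and sublingual gland and 0.0667% between submandibular and sublingual gland. At an unadjusted p under 0.05, limma gave 1 of the 8 (CFTR) of 254 genes for parotid against submandibular gland, 1 (SLC12A2) of 1368 for parotid against sublingual gland, and 2 (SLC12A2 and CFTR) of 2109 for submandibular against sublingual gland. CFTR was higher in submandibular gland than in parotid in 5 of 5 animals (ratio of means 10.6, log2 fold change of parotid against submandibular gland -1.33, adjusted p = 0.959) and higher than in sublingual gland in 5 of 5 (1.05, adjusted p = 0.248). SLC12A2 was higher in sublingual gland than in parotid in 4 of 5 animals (-1.27, adjusted p = 0.190). Without the 5 gland libraries SLC12A2 was called lower in parotid and submandibular gland than in sublingual gland (-1.72 and -1.32, adjusted p = 0.00218 and 0.00617). CFTR was then called higher in submandibular than in sublingual gland (1.5, adjusted p = 0.00344) and ANO1 higher in parotid than in sublingual gland (1.99, adjusted p = 0.0108). In that fit 42.3% of all genes were called between parotid and sublingual gland and 51.1% between submandibular and sublingual gland, with the median gene at -0.92 and -1.05. It kept sublingual 1 and 4, the libraries with oral mucosa markers. The fit without 6 gland libraries dropped both and kept submandibular 2. Of these calls it gave only that of SLC12A2 in parotid against sublingual gland (-1.95, limma adjusted p = 0.0482), with 1.68% of all genes called. The CFTR and ANO1 calls were not made there.

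**Figure D5:**
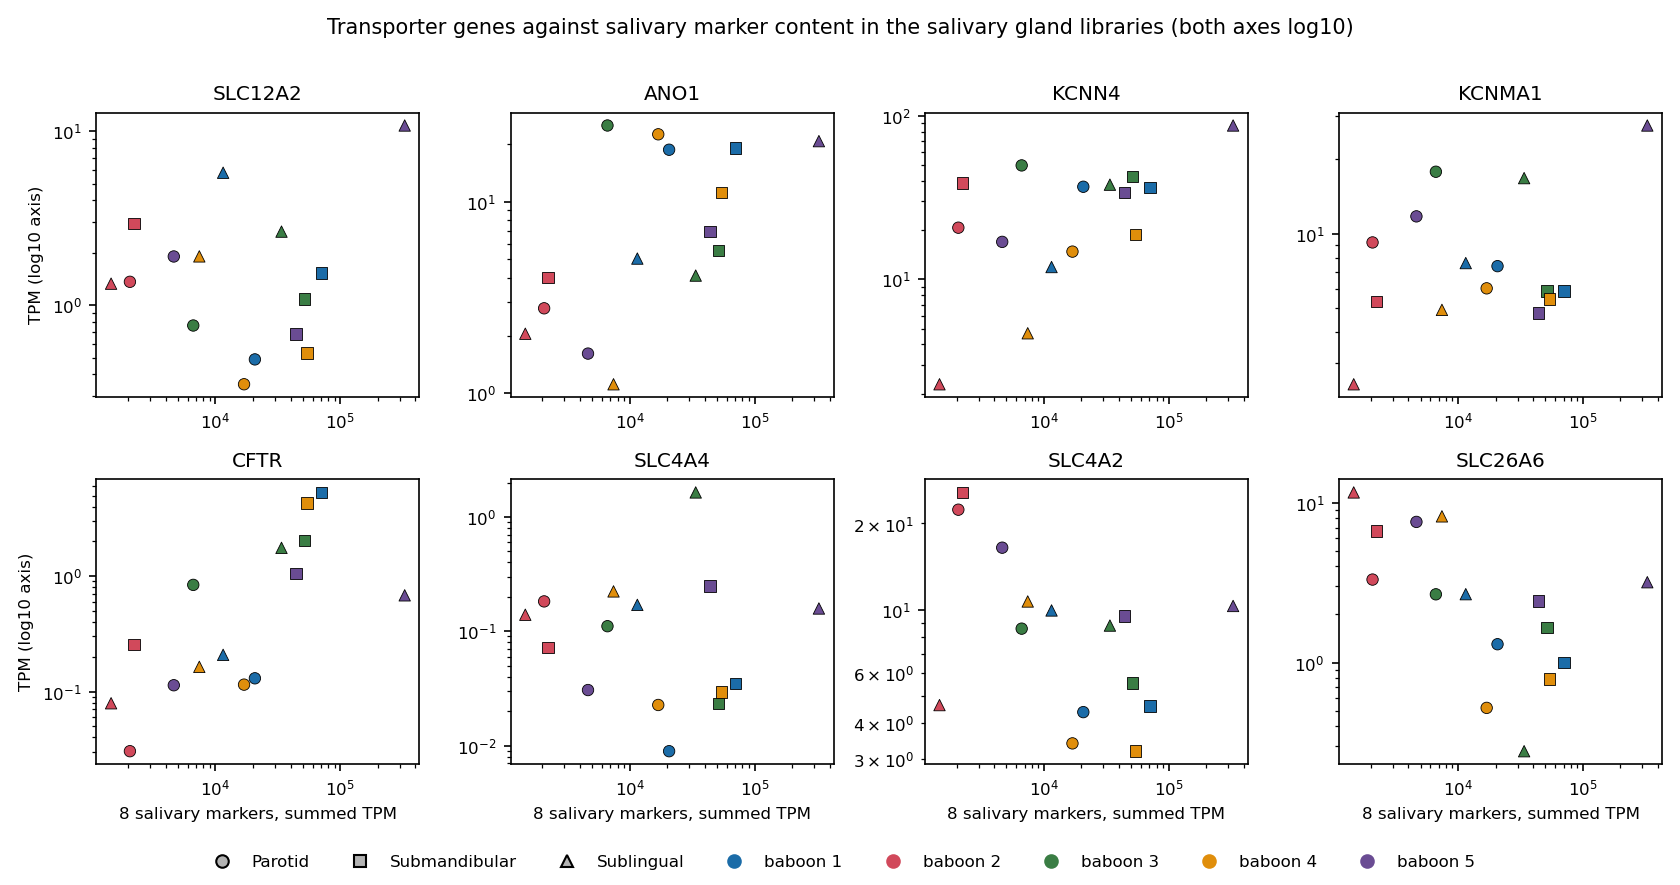
TPM of each of the 8 genes (vertical, log axis) against the summed TPM of 8 salivary secretory markers (horizontal, log axis) in the 15 salivary gland libraries, shaped by gland and coloured by baboon. The 3 libraries with the lowest marker sums (parotid 2, submandibular 2 and sublingual 2) have 2.05 to 4.01 TPM of ANO1 and no more than 0.256 TPM of CFTR, and SLC4A2 peaks in parotid 2 and submandibular 2.

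Within the glands, the 8 genes stood differently to the gland content of a library. In the 3 libraries with the lowest salivary marker sums (parotid, submandibular and sublingual 2), ANO1 was at 2.78, 4.01 and 2.05 TPM and CFTR at 0.0304, 0.256 and 0.0791 TPM, the lowest CFTR value of each gland. KCNN4 was at 20.7 and 38.9 TPM in the parotid and submandibular libraries of that animal, inside the range of the other animals, and at 2.28 TPM in the sublingual one, the lowest of that gland. SLC4A2 was highest there in parotid (22.4 TPM) and submandibular gland (25.7 TPM) but lowest in sublingual gland (4.63 TPM). Sublingual 5, whose markers summed to 328078 TPM, held the highest SLC12A2, KCNN4 and KCNMA1 values of all 25 libraries. The part of section content in these differences was not tested.

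The other genes of the pathway were counted from 6 lists of 78 symbols, of which 71 were in the table and 50 passed the filter on low values. These lists too were chosen with earlier results of these data known, so their shares are a description. Against pancreas, 3 of the 50 were called higher and 2 lower in parotid (10% together, beside 3.82% of all genes), 2 and 2 in submandibular gland (8%, beside 4.08%), and 6 and 2 in sublingual gland (16%, beside 9.47%). Between pancreas and liver 3 were called higher and 8 lower in pancreas (22%, beside 17.5%).

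Among 7 basolateral loading genes tested, FXYD3, a regulator of the sodium pump, was called higher in sublingual gland than in pancreas (8.69 to 866 against 7.25 to 19.8 TPM, higher in 4 of 5 animals, log2 fold change 4.08, limma adjusted p = 0.00534), a call lost without baboon 1 or 4 (adjusted p = 0.0703 and 0.0588). In the sublingual library of baboon 2, which holds skeletal muscle markers, its level overlapped that of pancreas.

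Among other anion exchangers, 2 of 6 were tested. SLC26A9 was called higher in sublingual gland than in pancreas (0.736 to 4.21 against 0.0380 to 0.0979 TPM, log2 fold change 1.52, limma adjusted p = 0.0179; call lost in 4 of 17 alternatives, adjusted p up to 0.414), and SLC26A11 was called lower in pancreas than in liver (-1.90, adjusted p = 0.00368). Of 9 other anion channels tested, 1 was called lower in submandibular and sublingual gland than in pancreas. That gene was BEST1, a calcium-activated anion channel, which had a mean of 2.83 ± 4.06 TPM and a median of 1.26 TPM in pancreas, so that 1 library carried most of the mean. These calls were lost in 6 of 17 alternatives for submandibular gland (adjusted p up to 0.229) and in 5 of 17 for sublingual gland (up to 0.183). BEST1 was called higher in pancreas than in liver (1.37, adjusted p = 0.00938), except without baboon 1 (0.85, adjusted p = 0.0672). The volume-regulated channel subunit LRRC8D was called lower in pancreas than in liver (-1.48, adjusted p = 0.0128), except without baboon 3 (adjusted p = 0.0758).

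Most of the other potassium channels and subunits were not called. Against pancreas 8 of 11 were not called in parotid and 9 of 11 in submandibular and in sublingual gland. Between pancreas and liver 8 of 11 were not called. Of 11 tested, KCNMB1 (above) was the 1 called higher in each gland than in pancreas, and KCNJ15 was the 1 called lower in each, joined in parotid by KCNQ1 (-1.61, limma adjusted p = 0.0463, lost in 8 of 18 alternatives). KCNJ15 (the inward rectifier Kir4.2) was at 20.1 ± 4.08 TPM in pancreas and did not pass 2.93 TPM in any other library. It was called lower than in pancreas in parotid, submandibular and sublingual gland (log2 fold changes -3.76, -3.78 and -2.99, limma adjusted p = 1.07e-08, 9.51e-09 and 6.17e-07). KCNN2, the small-conductance relative of KCNN4, was at 30.1 ± 8.39 TPM in liver and did not pass 5.07 TPM elsewhere, and pancreas against liver gave -4.19 (adjusted p = 1.41e-10). By mean, the highest of KCNN4, KCNJ15 and KCNN2 differed between the salivary glands, pancreas and liver. KCNJ15 and KCNN2 were named for the size of their changes between pancreas and liver, so this difference was built into the choice. Of 5 other cation-chloride cotransporters, SLC12A7 (KCC4) was called lower in pancreas than in liver (-1.74, adjusted p = 0.0191), a call lost without baboon 1, 3 or 5 (adjusted p = 0.0521 to 0.0749). Of 16 regulators and scaffolds, 3 were called higher in sublingual gland than in pancreas, STK39 (above), the related kinase OXSR1 and the calcium entry channel ORAI1 (1.84, adjusted p = 0.0236). The OXSR1 and ORAI1 calls were each lost in 5 of 18 alternatives, with adjusted p up to 0.148 and 0.131, and the STK39 call in 0 of 18. Between pancreas and liver 4 were called lower in pancreas, among them ORAI1 (-2.34, adjusted p = 0.00119) and the scaffold SLC9A3R2, known as NHERF2, which binds CFTR (-2.22, adjusted p = 0.00351).

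The genes whose log2(TPM + 1) values ran most nearly parallel to each member over the 25 libraries are given as a description, since the libraries share animals and tissues. For KCNN4 these were PLCB4, IRX1 and IRX2 (Pearson r = 0.94, 0.92 and 0.91), and for KCNMA1 PDCD4, TNFRSF11A and GARNL3 (0.92, 0.92 and 0.91). SLC4A4 was nearest to AQP8 and CCDC198 (0.93 and 0.93), and CFTR to KLK1, CLDN10 and FAM177B (0.83, 0.80 and 0.79). ANO1 was nearest to ATP2B2, OAT and SRCIN1 (0.92, 0.87 and 0.86), all of them low in pancreas and highest in liver. SLC12A2 was nearest to TLR5, TMEM155 and FCGBP (0.85, 0.85 and 0.84), SLC4A2 to CTDSP1, SSBP3 and CASP6 (0.95, 0.94 and 0.93), and SLC26A6 to PCNT, STK25 and HSPBP1 (0.87, 0.84 and 0.83).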

How the data were processed

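Total RNA was isolated from thin sections of flash-frozen tissue, treated with DNase and sequenced from both ends (Illumina HiSeq), per the labels' protocols. The authors deposited 1 table of TPM values per gene, which its name gives as kallisto abundances. The submitters' processing notes name FastQC, MultiQC, cutadapt, HISAT2, kallisto, SAMtools, featureCounts and DESeq2, with no role or order. The index, genome build and annotation are not given in the sources used here, so no coordinates are given. Each library sums to 1e+06 TPM, so very high genes depress the values of the rest. TPM keeps no depth, so no counting interval is given and precision rests on the spread over 5 animals.

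Libraries were assigned to tissue and animal by the labels, and none was left out of the main comparison. All 21287 identifiers matched a symbol in the RefSeq gene table of Panubis1.0, used only for names. The 14991 genes whose mean reached 1 TPM in any tissue were fitted on log2(TPM + 1) with limma 3.58.1 in R 4.3.3, with tissue and baboon as terms and a trend in eBayes. Benjamini-Hochberg adjustment ran over all tested genes within each of 10 comparisons, and calls needed an adjusted p below 0.05 with a log2 fold change of 1 or more in size. The animal is the block because the labels give the animal of each library: deviations from tissue means had a mean correlation of 0.16 over 50 pairs of libraries of the same baboon and -0.04 over 200 pairs of different baboons.

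Members and gene lists were chosen with earlier results of these data known. Besides the members, up to 3 genes per list with the largest change among those called between a gland and pancreas or between pancreas and liver are named, with the partners of SLC12A2, KCNMA1 and SLC4A4 (STK39, the WNK kinases, LRRC26, KCNMB1 to KCNMB4 and AHCYL1). OXSR1 and KCNQ1 are named after their values were seen. A few results that these rules would name are not reported here. Alternatives were no block, only the tissues compared, TMM or median-of-ratios scaling (computed on TPM), no filter or a 5 TPM minimum mean, a pseudocount of 0.1, calls by adjusted p alone, leaving out each baboon, and leaving out 4 or 6 gland libraries with markers of other tissue. Leaving out 5, submandibular 2 alone or sublingual 5 alone was chosen after seeing the data. The fit was tested on simulated data. Tables and figures used Python 3.11.15, pandas 2.3.3, numpy 2.4.6 and matplotlib 3.10.9.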

Additional observations from a re-analysis of the deposited data

Results flagged for a closer look

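In 7 of 40 groups (8 genes in 5 tissues), the highest library lay far from the other 4 by Dixon's criterion. Its rate of about 1 group in 20 by chance holds for independent groups of normally distributed values. Here the criterion was applied to TPM without a log, and the groups share libraries, so the number of flags cannot be set against that rate. ANO1 was at 20.7 TPM in sublingual 5, beside 1.12 to 5.05 TPM in the other sublingual libraries, and that library also had the highest salivary marker sum. CFTR was at 0.841 TPM in parotid 3, beside 0.0304 to 0.130 TPM. SLC4A4 was at 1.64 TPM in sublingual 3 (others 0.139 to 0.223 TPM), at 0.250 TPM in submandibular 5 (others 0.0233 to 0.0717 TPM) and at 1.98 TPM in liver 5 (others 0.463 to 0.852 TPM). SLC4A2 was at 25.7 TPM and SLC26A6 at 6.66 TPM in submandibular 2, beside 3.19 to 9.51 TPM and 0.791 to 2.43 TPM in the other submandibular libraries. Submandibular 2 had the lowest salivary marker sum of its gland and the highest erythroid sum of all libraries. Baboon 3 gave the highest CFTR value of both parotid and sublingual gland and the highest SLC4A4 value of the sublingual gland.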

How the results depend on the processing

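Of 80 member results (8 genes in 10 comparisons), 23 were called, and 10 of these were called under every alternative in which the gene was tested: KCNN4 in parotid and submandibular gland against liver and in submandibular gland against pancreas, CFTR in parotid against pancreas and in pancreas against liver, ANO1 in pancreas against liver, and all 4 of SLC4A4. No called change turned its direction. Of the 57 results not called, 42 were not called under any alternative, and 26 changed sign under at least 1 of them. Without the replicate block the counts of members called stayed at 5, 3 and 5 for parotid, submandibular and sublingual gland against pancreas, 3 for pancreas against liver, 2, 2 and 3 for the glands against liver, and 0 for each gland pair, so the pairing by baboon changed no count of members. Over all genes 3.37%, 3.52% and 7.25% were then called for the 3 glands against pancreas and 15.8% for pancreas against liver. For the 3 glands against liver the shares were 12.4%, 14.4% and 14.1%. With only the compared tissues in the fit, 2 members were called for sublingual gland against pancreas (9.65% of all genes), both lower. The calls of SLC12A2, KCNN4 and KCNMA1 were lost. Against liver (14.8% of all genes called) those 3 calls were lost too, and the 1 member called was SLC4A2, lower in sublingual gland (-1.12, adjusted p = 0.0414). TMM and median-of-ratios scaling each gave 3 for sublingual gland against pancreas (11.5% and 11.7% of all genes), with 0 higher and 3 lower instead of 3 higher and 2 lower. Over all genes they gave 1246 and 1255 calls for parotid against pancreas and 1320 and 1314 for submandibular gland against pancreas, beside 572 and 611 without scaling. Leaving out the 5 gland libraries gave 1188, 1504 and 5117 calls over all genes for parotid, submandibular and sublingual gland against pancreas, beside 572, 611 and 1419 with all libraries. A mean of at least 5 TPM left 5 members to test. Of these, 3 were called for parotid against pancreas (4.69% of all genes), 2 for sublingual gland against pancreas (12.7%) and 1 for pancreas against liver (22.7%). Leaving out 4 gland libraries gave 2 for parotid against sublingual gland, where 21.4% of all genes were called. Leaving out 6 gave 4 for submandibular gland against liver (25.4% of all genes) and 1 for parotid against sublingual gland (1.68%). Leaving out 5 gave 4 for submandibular gland against liver (43.8% of all genes) and 2 each for parotid (42.3%) and submandibular against sublingual gland (51.1%). Without sublingual 5 alone, 2 were called for sublingual gland against pancreas (11% of all genes). Leaving out each baboon in turn gave 2 to 5 members for parotid against pancreas (2.09% to 4.24% of all genes) and 2 to 3 for submandibular gland against pancreas (2.16% to 4.63%). It gave 2 to 5 for sublingual gland against pancreas (2.61% to 20.5%) and 3 to 3 for pancreas against liver (11.4% to 18.2%). Against liver it gave 1 to 3 for parotid (8.86% to 17.1% of all genes), 1 to 3 for submandibular (10.2% to 24.2%) and 0 to 3 for sublingual gland (10.2% to 20.3%). Between glands it gave 0 to 0 for parotid against submandibular (0% to 0.0747% of all genes) and 0 to 1 for parotid against sublingual (0% to 2.74%). For submandibular against sublingual gland it gave 0 to 2 (0% to 17.8%). Of the 23 calls, 10 were lost without baboon 1, 0 without baboon 2, 10 without baboon 3, 6 without baboon 4 and 7 without baboon 5. The cause of these changes in the calls was not tested. Depth is unknown, so values well under 1 TPM (CFTR in parotid and liver, SLC4A4 in the glands) carry an error from counting that cannot be given.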
